A study of Mus musculus with 14 samples.

Results

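Interferon induces several large gene families, but many of its target genes stand outside them. The 32 genes described here were listed by symbol as such single targets and grouped by what their products do. The list was chosen with earlier results of these data known. All 32 were found among the 34866 Ensembl gene identifiers of the deposited tables by symbol, with the version number of the identifier ignored, and 31 are protein-coding while Gm6548 is annotated as a processed pseudogene. The genes were followed in 3 mouse tumour cell lines, exposed for 24 h to 0.5 ug/ml of either the agonist of RIG-I or its control, with 100000 cells plated per well. CT26 is a colorectal carcinoma line from BALB/c mice grown in RPMI medium, with 3 libraries per agonist. E0771 is a mammary carcinoma line from C57BL/6 mice grown in RPMI medium, and MC38 is a colon adenocarcinoma line from C57BL/6 mice grown in DMEM medium, with 2 libraries per agonist each. No genotype other than the strain was named, no untreated cells were analysed here, and the sequence of neither agonist is given in the labels, so every fold change below is relative to the control agonist.

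RIG-I is a cytosolic helicase that recognises viral and other non-self RNA and signals through MAVS to switch on type I interferon genes. Secreted interferon then binds its receptor on the same and neighbouring cells, and a complex of transcription factors enters the nucleus and binds a DNA element called the interferon-stimulated response element. Among the genes it switches on are those for proteins that degrade or edit viral RNA, stop translation, hold virus particles at the cell surface, or adjust cell death and signalling. In tumour cells the same programme accompanies sensing of the cells' own or delivered RNA.

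The interferon-stimulated response element contains GAAA blocks spaced by 2 bases. A pair of GAAA blocks with any 2 bases between them (10 letters, the GAAA pair below) was searched on both strands in RefSeq promoter windows of the GRCm38.p6 build, which run from 250 bases before to 50 bases after each gene's start. Windows were present for 29 of the 32 genes, and 9 of these 29 (31%) held the motif, against 3.99% of the 27025 genes with a window. The motif TTCNNNGAA, the core of the gamma-activated site, was in 8 of the 29 (27.6%) and in 9.55% of all genes. A gene can have several windows and counts if any of them matches. By window, the GAAA pair was in 19.6% of 46 windows of the listed genes and in 3.44% of all 32851 windows. TTCNNNGAA was in 17.4% and 8.3% of these windows. Both motifs were in 4 of the 29 (13.8%) and in 0.614% of all genes, and the matches of the motifs can overlap, as they do in Bst2. A match describes letters only. The upstream stretches below are shown because the genes they precede include the gene of the 32 with the largest called rise in E0771 (Ddx60), the gene with the highest level per exon length in CT26 and MC38 (Bst2), and a gene with the motif that did not rise (Apobec3). Capitals mark the GAAA pair or its reverse complement, and each stretch is written 5′ to 3′ on the strand of its gene.
Ddx60, chr8:61928019-61928086, plus strand: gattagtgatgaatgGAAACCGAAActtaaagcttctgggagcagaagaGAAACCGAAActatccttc
Bst2, chr8:71537572-71537623, minus strand: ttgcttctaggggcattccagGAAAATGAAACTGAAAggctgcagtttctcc
Lgals9, chr11:78984955-78984994, minus strand: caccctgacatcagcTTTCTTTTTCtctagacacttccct
Tdrd7, chr4:45972091-45972130, plus strand: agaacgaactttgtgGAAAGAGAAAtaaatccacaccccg
Mitd1, chr1:37890624-37890661, minus strand: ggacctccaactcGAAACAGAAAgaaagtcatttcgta
Apobec3, chr15:79892253-79892292, plus strand: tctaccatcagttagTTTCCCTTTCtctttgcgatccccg
The Ddx60 stretch ends at the last base before the annotated start and holds the motif 53 and 19 bases before it, both times as GAAACCGAAA. The Bst2 matches start 130 and 124 bases before the start and share a GAAA block. In Lgals9, Tdrd7, Mitd1 and Apobec3 the motif begins 55, 191, 237 and 140 bases before a RefSeq start, which in Lgals9, Tdrd7 and Apobec3 lies inside the annotated gene. Ogfr, Shisa5 and Eif2ak2 held it only after the start, and the other 20 genes with a window did not have these letters in it.

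CT26 libraries were the deepest, with total counts of 32826742 to 40564102, so levels in that line rest on the most counts. E0771 totals ran from 12413347 to 13399247 and MC38 totals from 12347361 to 18964563. As edgeR's biological coefficient of variation, the spread between replicates was 0.102 for CT26, 0.202 for E0771 and 0.0304 for MC38. The labels do not state whether replicates are separate cultures, so p-values measure only how these libraries vary among themselves, and that variation may be technical. Leukocyte markers summed to at most 1.2 counts-per-million (CPM) in any library. The labelled tissue was poorly marked. Epcam was at 0 counts in every CT26 and MC38 library. The 8 colon epithelial markers summed to 36.3 to 46.3 CPM in CT26 and to 0.413 to 1.05 CPM in MC38. In E0771 the 8 mammary markers summed to 203 to 270 CPM, with Krt18 and Krt5 at 0. Nearly all of that sum was Krt8, at means of 243 CPM with control agonist and 215 CPM with RIG-I agonist. Krt8 is on the colon list too, which summed to 203 to 269 CPM in E0771. The E0771 sum thus does not tell mammary from colon. The summed level of 6 fibroblast markers was lower with RIG-I agonist in each line, at 1419 to 1792 and then 1214 to 1258 CPM in CT26, 221 to 297 and then 173 to 208 CPM in E0771, and 143 to 145 and then 106 to 112 CPM in MC38, with 4 of 6 called lower in CT26 and MC38 and none of 4 tested in E0771, and their part in the results was not tested. Each pair of lines also differs in strain, in culture medium or in both: CT26 is the only BALB/c line and MC38 the only line grown in DMEM. The names of the E0771 and MC38 columns share a prefix that the CT26 columns lack. A property of the line and of its handling therefore cannot be told apart.

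RIG-I agonist raised most of the 32 genes in each line. In CT26 30 of 32 were higher and none lower (edgeR's quasi-likelihood test, Benjamini-Hochberg adjusted p under 0.05 over all genes), where 19.8% of all 13893 genes tested were higher and 18.6% lower. In E0771 31 could be tested, of which 24 were higher and none lower, against 1.53% of 11728 genes higher and 0.0256% lower. In MC38 30 of 32 were higher and 1, Apobec3, was lower, against 18.9% of 12387 genes higher and 16.9% lower. The median log2 fold change of the 32 genes in CT26 was 1.36, that of the 31 in E0771 2.06 and that of the 32 in MC38 1.01, while the medians over all genes tested were 0.00061, -0.01 and -0.0046. The CT26 median is the same with Ms4a4d at its lower bound. These are bulk libraries, so a large rise in some cells and a small rise in all cannot be told apart.

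Groups separated by agonist almost everywhere. In CT26 the libraries of the 2 agonists did not overlap, with RIG-I agonist higher, for 30 genes (21.9% of all genes tested), in E0771 for all 31 tested (19.7%), and in MC38 for 31 (33.9%). Libraries without overlap and lower with RIG-I agonist were found for none of the genes in CT26 (30.3% of all genes) or E0771 (20.7%) and for 1 in MC38 (33.4%). The 24 genes called in E0771 were also called higher in CT26 and in MC38. The 7 tested E0771 genes that missed the threshold were Ms4a4d, Rtp4, Adar, Pnpt1, Plscr1, Apobec3 and Nt5c3. Their adjusted p-values from edgeR ran from 0.0805 for Plscr1 to 0.74 for Apobec3. With DESeq2 29 genes were called in E0771, where 2.8% of all genes tested were higher, and in 1 fit of all libraries 30, where 6.47% were higher. E0771 control replicate 1 lay above control replicate 2 for 25 of the 31 genes, with a median ratio of 1.15, against 48.6% of all genes, and RIG-I replicate 1 lay above RIG-I replicate 2 for 10 of the 31, with a median ratio of 0.888.

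**Figure D1:**
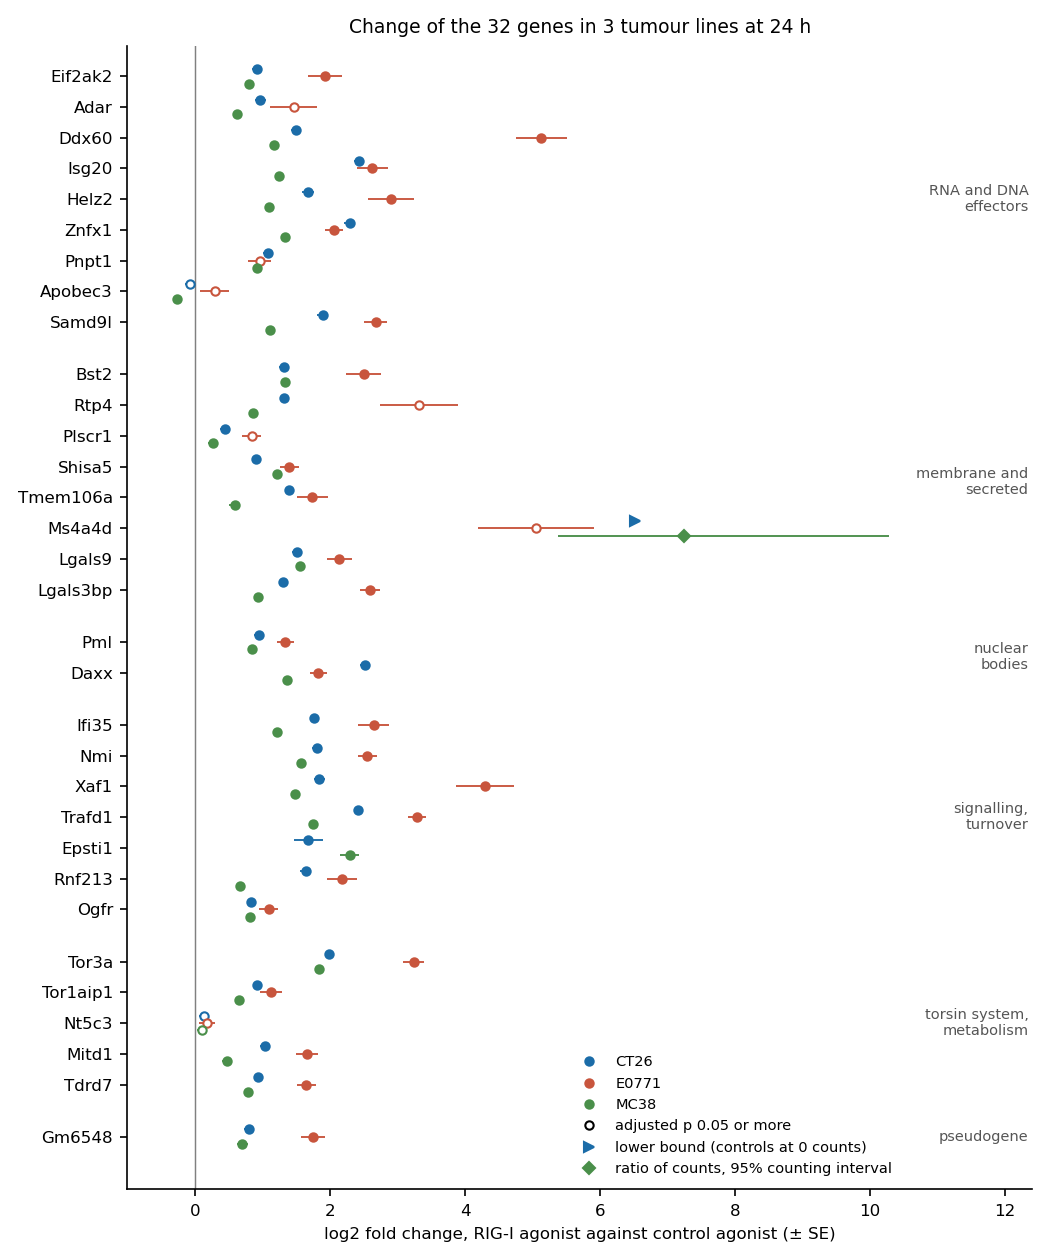
Log2 fold change of RIG-I agonist against control agonist (x axis) for each of the 32 genes (y axis, grouped by role) in CT26, E0771 and MC38. Whiskers are standard errors derived from the F statistic of the fit, and open symbols have an adjusted p of 0.05 or more. The triangle is a lower bound and the diamond a ratio of counts with its 95% counting interval; most E0771 points lie to the right of the other lines, and Apobec3 and Nt5c3 lie near 0 in every line.

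The RNA and DNA directed effectors are enzymes and binding proteins that act on foreign or abnormal nucleic acids, and 9 of the genes were in this group. In CT26 8 of 9 were called higher (19.8% of all genes tested), with a median log2 fold change of 1.49. In E0771 6 of 9 were called higher (1.53% of all genes tested), all 9 had a positive value, and the median was 2.06. In MC38 8 were called higher and 1 lower (18.9% and 16.9% of all genes tested), with a median of 1.09. The group includes the gene with the largest called rise in E0771, Ddx60, and the gene that fell in MC38, Apobec3.

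Ddx60 encodes a DExD/H-box RNA helicase that has been linked to RIG-I signalling (ENSMUSG00000037921.15, chr8:61928087-62038244). In E0771 its level was 4.37 and 2.81 CPM with control agonist and 93.2 and 158 CPM with RIG-I agonist. In CT26 it was 50.4, 51 and 59.9 CPM and then 147, 153 and 139 CPM, and in MC38 it was 70.1 and 68.7 CPM and then 152 and 161 CPM. The E0771 controls were far below all other libraries, whereas with RIG-I agonist the 3 lines overlapped. The log2 fold change was 5.13 in E0771 (SE 0.38, edgeR adjusted p = 0.00761), 1.49 in CT26 (SE 0.07, adjusted p = 1.17e-09) and 1.17 in MC38 (SE 0.05, adjusted p = 9.49e-15).

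Isg20 encodes an exonuclease that degrades single-stranded RNA (ENSMUSG00000039236.18, chr7:78913424-78920396). CT26 libraries held 24.3, 26.7 and 27.9 CPM with control agonist and 135, 146 and 131 CPM with RIG-I agonist. E0771 libraries went from 16.7 and 11.6 CPM to 78.6 and 96.8 CPM, and MC38 libraries from 36.3 and 38 CPM to 92.2 and 84.9 CPM. No control library reached a RIG-I library of its own line, and CT26 had the highest level after RIG-I agonist although MC38 had the highest with control agonist. Its rise was 2.43 on the log2 scale in CT26 (SE 0.07, edgeR adjusted p = 4.11e-12), 2.63 in E0771 (SE 0.23, adjusted p = 0.0113) and 1.25 in MC38 (SE 0.06, adjusted p = 3.68e-13).

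Other genes of the group also rose in every line. Eif2ak2 encodes PKR, the kinase that double-stranded RNA activates to stop translation, and its log2 fold change was 0.92 in CT26, 0.80 in MC38 and 1.93 in E0771. The helicase genes Helz2 and Znfx1 changed by 1.68 and 2.29 in CT26, 2.90 and 2.06 in E0771, and 1.09 and 1.34 in MC38. Samd9l, whose product restrains translation, changed by 1.89, 2.68 and 1.11 in the same order of lines. All of these passed the test in every line. The E0771 call of Helz2 was lost without RIG-I replicate 1 (edgeR adjusted p = 0.109) or RIG-I replicate 2 (0.0934), and that of Eif2ak2 with the replicate number as a block (0.199).

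Adar and Pnpt1 passed the test in CT26 and MC38 but not in E0771. Adar encodes the enzyme that converts adenosine to inosine in double-stranded RNA, and its log2 fold change was 0.97 in CT26, 0.63 in MC38 and 1.46 in E0771. In E0771 Adar was at 105 and 54.5 CPM with control agonist and at 251 and 185 CPM with RIG-I agonist, without overlap, and the adjusted p was 0.218 in edgeR. It was 0.000116 with the replicate number as a block, 0.0026 in 1 fit of all libraries and 0.000549 with DESeq2. Without control replicate 1, the higher of the controls, the log2 fold change was 2.01, with 1 control library left. The MC38 call of Adar was lost in 1 fit of all libraries (edgeR adjusted p = 0.154). Pnpt1 encodes polynucleotide phosphorylase, a mitochondrial exoribonuclease, and its log2 fold change was close in the 3 lines at 1.08, 0.96 and 0.92 for CT26, E0771 and MC38. Its E0771 libraries held 244 and 199 CPM and then 395 and 458 CPM, with no overlap, and the adjusted p there was 0.0936 in edgeR. Pnpt1 was called in E0771 with no filter (edgeR adjusted p = 0.0304), with the replicate number as a block (0.00318), in 1 fit of all libraries (7.03e-05) and with DESeq2 (0.000121).

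Apobec3 encodes a cytidine deaminase that restricts retroviruses, and it is the member that fell (ENSMUSG00000009585.18, chr15:79891659-79915906). MC38 libraries held 804 and 859 CPM with control agonist and 683 and 704 CPM with RIG-I agonist, and CT26 libraries held 739, 642 and 573 CPM and then 623, 581 and 592 CPM. E0771 libraries held 3738 and 3037 CPM and then 4147 and 4113 CPM. The MC38 groups did not overlap, the CT26 groups did, and every E0771 library stood above every library of the other lines. The log2 fold change was -0.26 in MC38 (SE 0.04, edgeR adjusted p = 7.34e-06), -0.07 in CT26 (SE 0.08, adjusted p = 0.528) and 0.29 in E0771 (SE 0.21, adjusted p = 0.74). In 1 fit of all libraries, where the spread is shared between lines, the MC38 value was again -0.26 but its adjusted p was 0.248, and the CT26 value was 0.03 without control replicate 1. Apobec3 overlaps Cbx7 on the opposite strand in the annotation, as Adar does Chrnb2, and whether the authors' counting used strand is not given in the sources used here.

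The membrane, surface and secreted group held 8 genes. All 8 were called higher in CT26 and in MC38 (19.8% and 18.9% of all genes tested), with median log2 fold changes of 1.32 and 1.08. In E0771 5 of 8 were called higher (1.53% of all genes tested), all 8 had a positive value, and the median over all 8 was 2.32. The group includes Bst2, the gene with the highest level per exon length in CT26 and MC38 controls, and Ms4a4d, the gene with the lowest.

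Bst2 encodes tetherin, which holds budding virus particles on the cell surface (ENSMUSG00000046718.8, chr8:71534255-71537456). Its level was 473, 547 and 517 CPM in CT26 controls and 1217, 1294 and 1189 CPM with RIG-I agonist. In E0771 it was 187 and 122 CPM and then 915 and 817 CPM, and in MC38 it was 347 and 345 CPM and then 877 CPM in both libraries. Controls and RIG-I libraries separated in each line, and E0771 started lowest. On the log2 scale Bst2 rose by 1.32 in CT26 (SE 0.07, edgeR adjusted p = 3.58e-09), 2.50 in E0771 (SE 0.26, adjusted p = 0.0182) and 1.34 in MC38 (SE 0.03, adjusted p = 2.36e-18).

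Ms4a4d, a gene of the tetraspan MS4A family (ENSMUSG00000024678.6, chr19:11536801-11558467), was at or near 0 with control agonist and detected with RIG-I agonist in each line. CT26 held 0 counts in each of 3 control libraries and 2.82, 2.36 and 2.38 CPM with RIG-I agonist, a total of 272 counts. This is at least 91.8-fold higher, with the floor set at 3 counts over the control group. MC38 held 2 control counts in all and 330 with RIG-I agonist, at 11.1 and 9.86 CPM, a ratio of 151 with an exact 95% counting interval of 41.4 to 1251. Both passed edgeR's test, with adjusted p-values of 3.58e-08 and 7.92e-12. In E0771 Ms4a4d was at 0.151 and 0.802 CPM and then at 8.05 and 23.5 CPM. The E0771 groups did not overlap, but the libraries within each of them were far apart, and the log2 fold change of 5.05 (SE 0.86) had an edgeR adjusted p of 0.0863. The edgeR adjusted p was 5.67e-09 with the replicate number as a block and 0.00108 in 1 fit of all libraries, and that of DESeq2 was 3.27e-09. Without RIG-I replicate 1, the lower of the RIG-I libraries, the log2 fold change was 5.62, with 1 RIG-I library left. Counting intervals and floors cover counting error only.

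Rtp4, a receptor transporter protein gene, was at 68.1, 71 and 76 CPM in CT26 controls and at 177, 172 and 171 CPM with RIG-I agonist (ENSMUSG00000033355.6, chr16:23520291-23614222). In E0771 it was at 14.3 and 3.85 CPM and then at 82.9 and 98.3 CPM, and in MC38 at 48.4 and 44.8 CPM and then at 83 and 87 CPM. The E0771 controls differed widely from each other, and both lay below every other library. Fitted log2 fold changes of Rtp4 were 1.32 in CT26 (SE 0.06, edgeR adjusted p = 2.28e-10), 0.86 in MC38 (SE 0.06, adjusted p = 7.47e-11) and 3.32 in E0771 (SE 0.58, adjusted p = 0.0899). The E0771 call was made in 1 fit of all libraries (edgeR adjusted p = 0.000133) and with DESeq2 (0.00556). The E0771 value was 4.57 without control replicate 1 and 2.67 without control replicate 2. Either fit leaves 1 control library, which removes the spread between the controls, so neither bears on the call. In 1 fit of all libraries the MC38 adjusted p was 0.125. Rtp4 overlaps Masp1 on the opposite strand.

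The galectin gene Lgals9 and Lgals3bp, whose product is a secreted glycoprotein that binds galectins, rose in all lines. Lgals3bp was at 248, 247 and 238 CPM in CT26 controls and at 602, 568 and 579 CPM with RIG-I agonist. In E0771 Lgals3bp was at 98.5 and 91.6 CPM and then at 536 and 604 CPM, and in MC38 at 629 and 619 CPM and then at 1211 and 1191 CPM. MC38 controls stood above the CT26 and E0771 libraries of either agonist, and within each line the groups did not overlap. Lgals3bp rose by 1.30 on the log2 scale in CT26, by 2.59 in E0771 and by 0.94 in MC38, with standard errors of 0.06, 0.15 and 0.03. Lgals9 changed by 1.51, 2.14 and 1.56 in the same order.

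Shisa5, Plscr1 and Tmem106a complete the group. Shisa5, an endoplasmic reticulum protein linked to cell death, changed by 0.91 in CT26, 1.40 in E0771 and 1.22 in MC38. Plscr1, a phospholipid scramblase, changed by 0.44 in CT26 and 0.26 in MC38, the smallest called rises in those lines, and by 0.84 in E0771 with an edgeR adjusted p of 0.0805. The E0771 change of Plscr1 was called with no filter (adjusted p = 0.0339), with the block (2.12e-05), in 1 fit of all libraries (7.8e-05) and with DESeq2 (0.00671). In MC38 the call of Plscr1 was lost with DESeq2 (adjusted p = 0.0871) and in 1 fit of all libraries (0.134). Tmem106a, a membrane protein gene and one of the 3 lowest per length in CT26 controls, was at 17.2, 15 and 15.3 CPM in CT26 controls and 41.1, 39.2 and 40.9 CPM with RIG-I agonist. In E0771 Tmem106a went from 7.01 and 8.5 CPM to 22 and 29.4 CPM, and in MC38 from 29.8 and 24.7 CPM to 42.9 and 40.2 CPM. No groups overlapped, and the log2 fold change was 1.40, 1.74 and 0.59 in CT26, E0771 and MC38. Its E0771 call was lost without control replicate 1 (edgeR adjusted p = 0.0725) or RIG-I replicate 2 (0.0795).

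Pml and Daxx encode proteins of PML nuclear bodies, and both rose in all 3 lines. Daxx, a histone chaperone (ENSMUSG00000002307.15, chr17:33909414-33915590), was at 35.7, 33.6 and 30.2 CPM in CT26 controls and at 180, 181 and 190 CPM with RIG-I agonist. In E0771 Daxx was at 58.1 and 57.9 CPM and then at 193 and 218 CPM, and in MC38 at 76.2 and 74.5 CPM and then at 197 and 191 CPM. The order of the controls was CT26, E0771, MC38 with no overlap, and with RIG-I agonist the 3 lines lay within 180 to 218 CPM. Daxx rose by 2.52 on the log2 scale in CT26 (SE 0.07, edgeR adjusted p = 1.8e-12), 1.83 in E0771 (SE 0.13, adjusted p = 0.00761) and 1.36 in MC38 (SE 0.04, adjusted p = 2.15e-16). Pml, the scaffold of the bodies, changed by 0.95, 1.34 and 0.85 in the same order.

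The signalling and protein turnover group held 7 genes. Each one that could be tested was called higher: 7 in CT26, 6 in E0771 and 7 in MC38 (19.8%, 1.53% and 18.9% of all genes tested). Their median log2 fold changes were 1.76, 2.60 and 1.48, the highest of the groups with more than 2 genes in each line.

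Xaf1 encodes a pro-apoptotic protein that binds the caspase inhibitor XIAP (ENSMUSG00000040483.15, chr11:72301629-72313733). In E0771 it was at 9.58 and 3.93 CPM with control agonist and at 120 and 147 CPM with RIG-I agonist. CT26 libraries held 72.1, 79.1 and 93.3 CPM and then 276, 282 and 289 CPM, and MC38 libraries 50.3 and 47.9 CPM and then 142 and 133 CPM. The E0771 controls lay below all other libraries, while E0771 and MC38 overlapped with RIG-I agonist and CT26 stood above both. Xaf1 rose by 4.30 on the log2 scale in E0771 (SE 0.43, edgeR adjusted p = 0.0159), 1.84 in CT26 (SE 0.08, adjusted p = 9.32e-09) and 1.48 in MC38 (SE 0.05, adjusted p = 1.07e-15). The E0771 call was lost without RIG-I replicate 1 (adjusted p = 0.113), without RIG-I replicate 2 (0.127) and with the replicate number as a block (0.135), with values of 4.16 to 4.43.

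Trafd1, a zinc finger protein that restrains innate signalling, was among the 4 largest changes called in every line (ENSMUSG00000042726.14, chr5:121371725-121385632). CT26 held 29.9, 30.4 and 28.3 CPM and then 154, 148 and 154 CPM. E0771 held 18.5 and 17.6 CPM and then 166 and 184 CPM, and MC38 70.6 and 67.7 CPM and then 228 and 238 CPM. Replicates lay close together and the groups were far apart in each line. Trafd1 rose by 2.41 on the log2 scale in CT26 (SE 0.06, edgeR adjusted p = 7.46e-13), 3.29 in E0771 (SE 0.14, adjusted p = 0.00397) and 1.75 in MC38 (SE 0.04, adjusted p = 3.27e-18).

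Epsti1, named for epithelial and stromal interaction, was the other gene with few counts (ENSMUSG00000022014.15, chr14:77904239-78002657). MC38 held 3.59 and 4.73 CPM and then 18.8 and 21.4 CPM, and CT26 held 0.698, 0.683 and 1.01 CPM and then 2.47, 2.36 and 2.59 CPM. In E0771 Epsti1 had 1 and 0 counts in the controls and 13 and 4 counts with RIG-I agonist, and it did not enter the test. The MC38 level stood above the CT26 level and the E0771 level with either agonist. The log2 fold change was 2.29 in MC38 (SE 0.14, edgeR adjusted p = 2.72e-11) and 1.68 in CT26 (SE 0.22, adjusted p = 4.79e-05). The E0771 ratio of counts was 16.1 with an exact 95% counting interval of 2.52 to 672.

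Rnf213 encodes a giant ubiquitin ligase (ENSMUSG00000070327.14, chr11:119393100-119487418). MC38 held 1396 and 1476 CPM and then 2242 and 2310 CPM, CT26 held 389, 344 and 318 CPM and then 1054, 1033 and 1082 CPM, and E0771 held 388 and 345 CPM and then 1406 and 1906 CPM. MC38 was highest with either agonist, and the CT26 and E0771 controls overlapped. Rnf213 rose by 0.66 on the log2 scale in MC38 (SE 0.04, edgeR adjusted p = 2.18e-12), 1.64 in CT26 (SE 0.08, adjusted p = 9.75e-10) and 2.18 in E0771 (SE 0.22, adjusted p = 0.0162).

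Ifi35 and Nmi encode partner proteins that bind each other, and they moved alike: 1.76 and 1.81 in CT26, 2.65 and 2.55 in E0771, and 1.22 and 1.57 in MC38. Ogfr, the opioid growth factor receptor, is one of the 3 highest genes per length in CT26 controls. Its level was 184, 195 and 192 CPM in CT26 controls and 323, 340 and 325 CPM with RIG-I agonist, in E0771 63.9 and 72 CPM and then 151 and 137 CPM, and in MC38 225 and 215 CPM and then 393 and 381 CPM. No groups overlapped, and the log2 fold change was 0.83, 1.09 and 0.81 in CT26, E0771 and MC38. The E0771 call of Ogfr was lost without control replicate 1 (edgeR adjusted p = 0.129), control replicate 2 (0.0772) or RIG-I replicate 1 (0.0797).

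In the last group, of the torsin system, metabolism and cell architecture, 4 of 5 genes were called higher in each line. Of all genes tested, 19.8%, 1.53% and 18.9% were higher in CT26, E0771 and MC38. The median log2 fold changes of the group were 0.93 in CT26, 1.65 in E0771 and 0.65 in MC38. Tor3a encodes a torsin, an ATPase of the endoplasmic reticulum and nuclear envelope (ENSMUSG00000060519.11, chr1:156653617-156674356). CT26 held 138, 134 and 137 CPM and then 523, 516 and 520 CPM, E0771 21.6 and 24.9 CPM and then 200 and 237 CPM, and MC38 91.8 and 94 CPM and then 336 and 329 CPM. The order CT26, MC38, E0771 held with either agonist, without overlap. Tor3a rose by 1.98 on the log2 scale in CT26 (SE 0.06, edgeR adjusted p = 7.15e-12), 3.24 in E0771 (SE 0.16, adjusted p = 0.00469) and 1.84 in MC38 (SE 0.04, adjusted p = 2.28e-19).

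Tor1aip1 encodes LAP1, an inner nuclear membrane cofactor of torsins, and changed by 0.92, 1.13 and 0.65 in CT26, E0771 and MC38. Its E0771 adjusted p was 0.0493 in edgeR, and it was 0.0512 with DESeq2 size factors, 0.151 without control replicate 2, 0.094 without RIG-I replicate 1 and 0.0563 without RIG-I replicate 2. Mitd1, which acts at the end of cell division, changed by 1.04, 1.66 and 0.47 and overlaps Lipt1 on the opposite strand, and the Tudor domain gene Tdrd7 by 0.93, 1.65 and 0.78. Nt5c3, a pyrimidine nucleotidase, was not called in any line. Its CT26 libraries held 29.3, 29.9 and 32.7 CPM and then 31.4, 31.3 and 34.6 CPM, its MC38 libraries 27.7 and 28.6 CPM and then 30.1 and 30.5 CPM, and its E0771 libraries 58.4 and 61.3 CPM and then 67 and 68.1 CPM. The CT26 groups overlapped, and the MC38 and E0771 groups did not but lay close together. The log2 fold changes were 0.13 (SE 0.07, edgeR adjusted p = 0.182), 0.10 (SE 0.07, adjusted p = 0.297) and 0.18 (SE 0.12, adjusted p = 0.7) in CT26, MC38 and E0771.

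**Figure D2:**
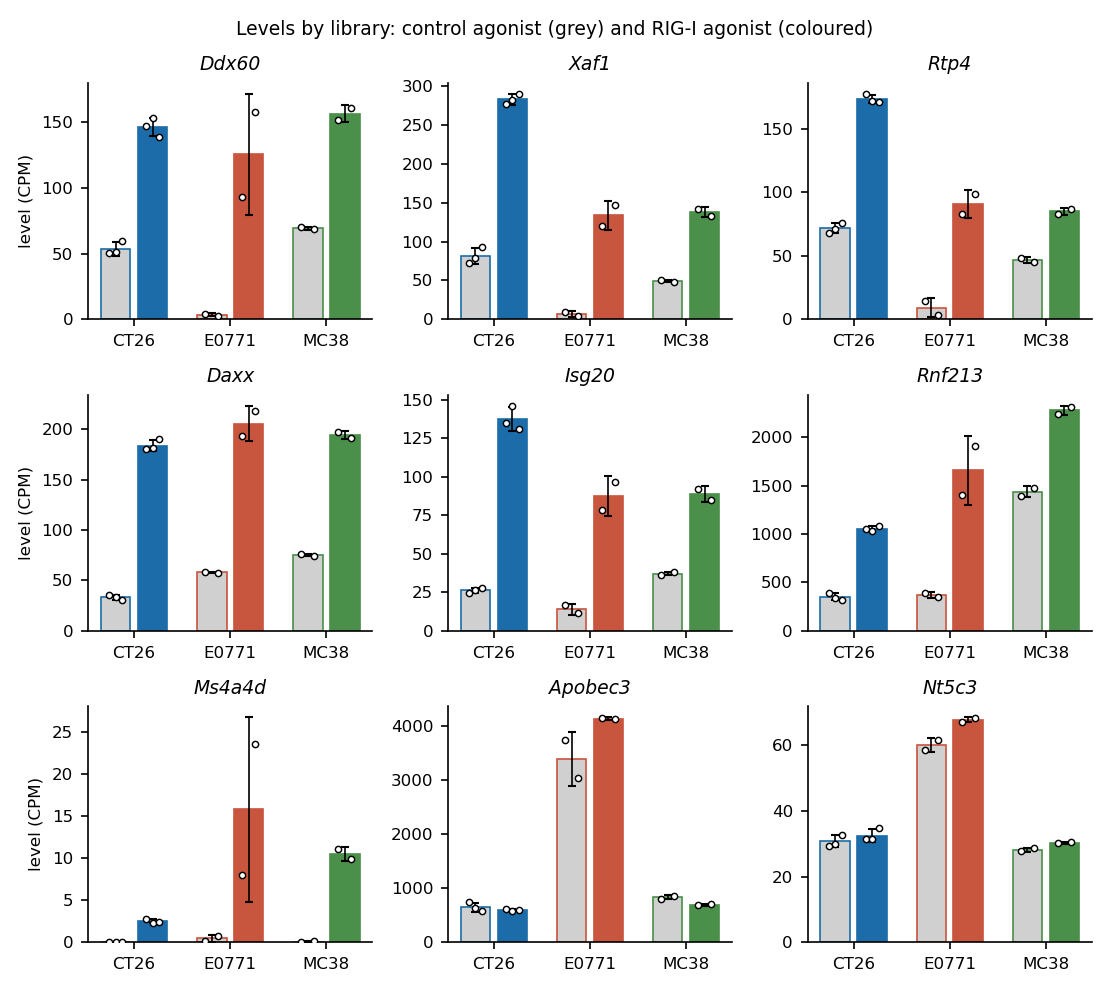
Level in CPM (y axis, from 0) of 9 genes in each line with control agonist (grey) and RIG-I agonist (coloured); circles are libraries, bars means and whiskers SD (n = 3 in CT26, n = 2 in E0771 and MC38). The E0771 controls of Ddx60, Xaf1 and Rtp4 lie near 0 beside the other lines, and Apobec3 and Nt5c3 show small changes with E0771 highest.

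Gm6548 (ENSMUSG00000091549.1, chr17:78850792-78851956, minus strand) needs a separate reading. Its annotated transcript was 96.7% identical over 1166 aligned bases to a transcript of Eef1a1, the translation elongation factor, and it lies 607 bases downstream of Eif2ak2 on the same strand. Reads of Eef1a1 can be assigned to it and reads running on from Eif2ak2 can fall in it, so its value is uncertain. In CT26 it was at 13.6, 13.7 and 14.1 CPM and then at 22.1, 22 and 25.7 CPM, in E0771 at 19.2 and 14.6 CPM and then at 58.5 and 54.6 CPM, and in MC38 at 19.1 and 20.1 CPM and then at 30.7 and 32.7 CPM. Groups did not overlap, and the log2 fold change was 0.80, 1.75 and 0.70 in CT26, E0771 and MC38, each called. Eif2ak2 changed by 0.92, 1.93 and 0.80, and Eef1a1 by -0.32, -0.31 and 0.03 in the same order. Gm6548 stood at 5.19% to 6.27% of the Eif2ak2 level in CT26 libraries, at 18.6% to 20.3% in MC38 and at 24.1% to 35.2% in E0771. The part of either neighbour or parent in the value was not tested.

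**Figure D3:**
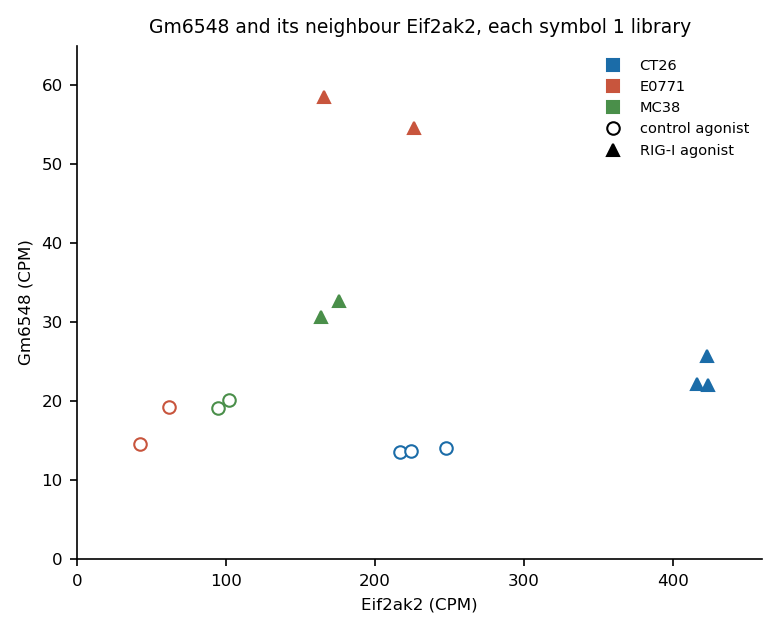
Level of Gm6548 (y axis, CPM) against Eif2ak2 (x axis, CPM) in each of 14 libraries, with colour for the line, circles for control agonist and triangles for RIG-I agonist. Within a line both are higher with RIG-I agonist, and CT26 has a lower share of Gm6548, 5.19% to 6.27% of Eif2ak2, than the other lines.

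Ranked by level per kilobase of merged exon length, Bst2 was first in CT26 controls at 567 ± 41.5 CPM per kb (SD, n = 3) and in MC38 controls at 383 ± 1.21 (SD, n = 2). In E0771 controls Apobec3 was first at 358 ± 52.5 and Bst2 second at 171 ± 50.9 (SD, n = 2). Lgals3bp followed in CT26 and MC38 at 85.8 ± 1.99 and 219 ± 2.48 CPM per kb, then Ogfr in CT26 at 73.9 ± 2.2 and Apobec3 in MC38 at 88 ± 4.11. Pnpt1, at 91.6, 94.4 and 110 CPM in CT26 controls, 244 and 199 CPM in E0771 controls and 156 and 159 CPM in MC38 controls, followed per length in E0771 at 62.9 ± 9.03 CPM per kb. Ms4a4d and Epsti1 took the last places in every line, joined by Tmem106a in CT26 at 5.05 ± 0.37, Ddx60 in E0771 at 0.413 ± 0.128 and Nt5c3 in MC38 at 6.63 ± 0.144 CPM per kb. With RIG-I agonist Bst2 was first in all 3 lines, at 1366 ± 60.3, 959 ± 77.2 and 971 ± 0.587 CPM per kb in CT26, E0771 and MC38.

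**Figure D4:**
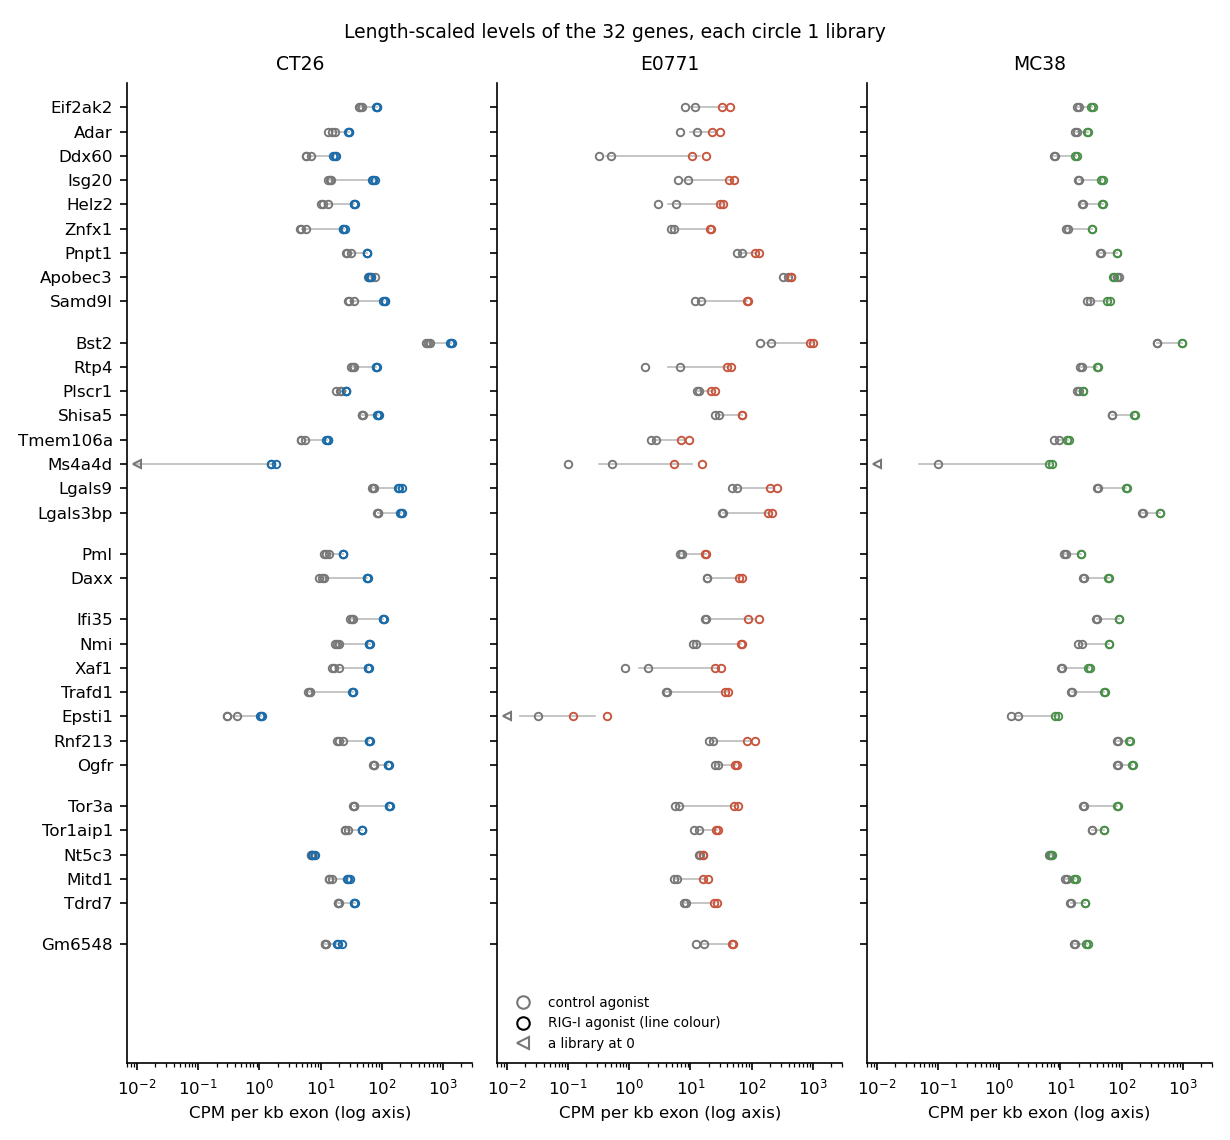
Level in CPM per kb of exon (x axis, log scale) of the 32 genes (y axis, by role) in each library, grey for control agonist and coloured for RIG-I agonist, joined at the means; triangles at the left edge mark libraries at 0. Bst2 is highest with RIG-I agonist in all lines, and Ms4a4d and Epsti1 are lowest with control agonist.

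The lines differed in how far the genes rose. Each difference of log2 fold changes between a pair of lines was tested as an interaction contrast with edgeR, on the 14 libraries fitted together. That fit shares the spread between lines, with a biological coefficient of variation of 0.122. Fitted alone, E0771 had 0.202, CT26 0.102 and MC38 0.0304, so the spread of E0771 can be understated in its contrasts. Between CT26 and E0771, 18 genes differed: Daxx rose more in CT26 and 17 genes more in E0771, where 1.06% and 2.81% of the 14657 genes tested had a larger and a smaller value in CT26. Between CT26 and MC38, 7 genes differed, all with the larger rise in CT26 (1.98% of all genes tested, against 1.82% with the smaller value there). Between E0771 and MC38, 19 differed, all with the larger rise in E0771 (1.81% of all genes tested, against 0.3% with the smaller value there). Fits of the 2 lines only gave 10 genes for each pair with E0771, where 0.478% and 1.13% of all genes tested had a larger and a smaller value in CT26 than in E0771, and 0.65% a larger value in E0771 than in MC38. Each line enters 2 of these contrasts, so they share libraries.

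Among the genes called, Ddx60, Xaf1 and Rtp4 had the largest differences involving E0771. As CT26 minus E0771, the log2 difference was -3.68 for Ddx60 (SE 0.31, edgeR adjusted p = 6.34e-05), -2.50 for Xaf1 (SE 0.31, adjusted p = 0.000994) and -2.04 for Rtp4 (SE 0.41, adjusted p = 0.0239). Relative to MC38, the differences were 3.95 for Ddx60 (SE 0.33, adjusted p = 5.01e-05), 2.81 for Xaf1 (SE 0.34, adjusted p = 0.000917) and 2.44 for Rtp4 (SE 0.46, adjusted p = 0.0216). The Ddx60 and Xaf1 differences were called under every alternative run. The Rtp4 difference from CT26 lost its call with no filter (adjusted p = 0.1), with the replicate number as a block (0.108), in a fit of the 2 lines only (0.109), and without any 1 of 6 libraries (0.0506 to 0.0595): CT26 control replicate 2, the 3 CT26 RIG-I libraries, E0771 RIG-I replicate 2 and MC38 RIG-I replicate 1. The Rtp4 difference from MC38 lost it with no filter (0.0923), with the block (0.125), in a fit of the 2 lines only (0.188), and without E0771 RIG-I replicate 2 (0.0581) or any MC38 library (0.0755 to 0.108).

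Among the genes called, Isg20, Daxx and Rnf213 had the largest differences between CT26 and MC38. The log2 difference was 1.13 for Isg20 (SE 0.17, edgeR adjusted p = 0.0031), 1.11 for Daxx (SE 0.11, adjusted p = 0.000152) and 0.93 for Rnf213 (SE 0.17, adjusted p = 0.00941). Znfx1, Samd9l, Tmem106a and Trafd1 differed by 0.90, 0.74, 0.74 and 0.61. Without MC38 control replicate 2, MC38 RIG-I replicate 1 or MC38 RIG-I replicate 2 the count fell from 7 to 4, and the adjusted p of Rnf213 became 0.0638, 0.0613 and 0.0546. Samd9l lost its call without any 1 of the 4 MC38 libraries (0.0556 to 0.109), and Tmem106a without any 1 of those or of 5 CT26 libraries, all but control replicate 1 (0.058 to 0.194). In a fit of the 2 lines only 13 genes differed, 12 of them higher in CT26, where 5.82% of all genes tested were higher there and 10.4% lower.

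Across the genes, the order of the log2 fold changes was similar in the lines, with Spearman coefficients of 0.77 for CT26 and E0771 (31 genes), 0.78 for CT26 and MC38 (32 genes) and 0.70 for E0771 and MC38 (31 genes). These are descriptions across genes, which are not independent replicates and share libraries within a line. The fitted value was larger in E0771 than in CT26 for 27 of 31 genes, larger in E0771 than in MC38 for 30 of 31, and larger in CT26 than in MC38 for 28 of 32.

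Levels with control agonist also differed between lines. E0771 was below MC38 for 26 genes and above it for 4, where 32.6% and 31.5% of all genes were lower and higher. CT26 was above E0771 for 24 genes and below it for 6, against 37.2% and 33.1% of all genes. CT26 was above MC38 for 6 genes and below it for 15, against 37.8% and 35.8% of all genes. Of the genes below in E0771, Ddx60 differed most among those with at least 1 CPM in every group, by -4.26 on the log2 scale from MC38 (SE 0.27, edgeR adjusted p = 5.17e-08), followed by Xaf1 at -2.85 (SE 0.26, adjusted p = 1.97e-06) and Lgals3bp at -2.72 (SE 0.08, adjusted p = 2.99e-11). Of the genes above in E0771, Apobec3 differed most, by 2.03 from MC38 (SE 0.12, adjusted p = 1.4e-08), and Nt5c3 by 1.09 (SE 0.09, adjusted p = 1.44e-07).

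With RIG-I agonist the levels of the lines lay closer together. For 30 of the 32 genes all group means were at least 1 CPM, and the ratio of the highest to the lowest line was smaller with RIG-I agonist than with control agonist for 26 of them. The median ratio went from 2.58 to 1.72, while over 9946 such genes it went from 1.89 to 1.86 and was smaller for 54.3%. Ddx60 went from 19.3 to 1.25, Xaf1 from 12.1 to 2.11, Rtp4 from 7.93 to 2.03 and Daxx from 2.27 to 1.12. The ratio was wider for Apobec3, at 5.2 and then 6.9, for Gm6548, at 1.42 and then 2.43, for Lgals9, at 1.76 and then 1.92, and for Nt5c3, at 2.12 and then 2.23. E0771 was the lowest line for 22 genes with control agonist and for 15 with RIG-I agonist. The same E0771 control libraries enter these ratios, the level differences and the fold changes, so the 3 are not independent. With each E0771 library left out in turn, 25 to 27 genes were narrower. Between CT26 and MC38 only, 18 of the 30 genes were narrower, against 55% of all genes, and the median ratio went from 1.43 to 1.39.

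**Figure D5:**
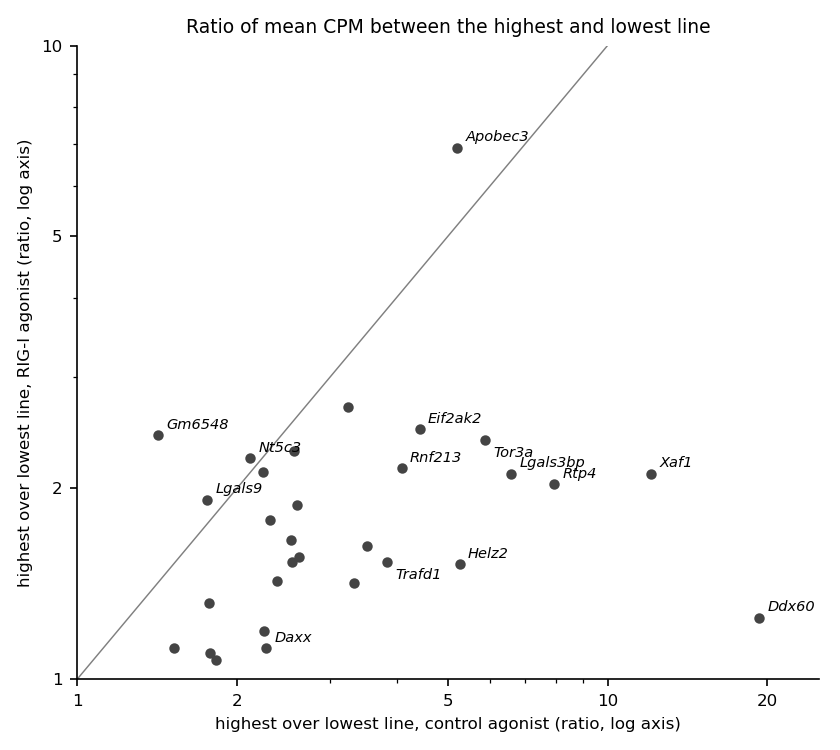
Ratio of the mean CPM in the highest line to that in the lowest line with RIG-I agonist (y axis, log scale) against the same ratio with control agonist (x axis, log scale) for the 30 genes at 1 CPM or more in every group; the line marks equal ratios. Of the points, 26 lie below the line, with Ddx60 farthest at 19.3 and 1.25, and Apobec3, Gm6548, Lgals9 and Nt5c3 lie above it.

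Some interferon signalling genes moved in the same libraries, while those of the receptor and its kinases changed little. Of 12 interferon signalling genes, 9 were called higher and 1 lower in CT26, 5 higher in E0771 and 7 higher in MC38. Of all genes tested, 19.8%, 1.53% and 18.9% were higher in these lines, and 18.6% were lower in CT26. Large changes were seen in Irf7, at 2.51, 5.43 and 2.58 on the log2 scale in CT26, E0771 and MC38, Usp18, at 2.15, 5.0 and 1.78, and Stat2, at 2.22, 3.14 and 1.12. Irf7 is the transcription factor that amplifies interferon production, and Usp18 is a feedback inhibitor of the receptor. Ifnar1, a subunit of that receptor, is the gene that fell in CT26, by 0.19 on the log2 scale, and it was singled out after its values were seen. The other subunit gene, Ifnar2, changed by 0.24, 0.36 and 0.19 in CT26, E0771 and MC38 and was called only in CT26. The kinase genes Jak1 and Tyk2 changed by -0.17 to 0.08 without a call in any line. Ifnar2, Jak1 and Tyk2 were also singled out after their values were seen. A list of 16 canonical interferon targets of the large families rose as a whole, 16 of 16 in each line, with median log2 fold changes of 2.31 in CT26, 4.91 in E0771 and 1.73 in MC38. Of that list Ifit3, an RNA-binding protein gene, changed by 3.79, 6.59 and 4.55.

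A list of 22 genes not known as classic interferon targets held relatives of the members, with Xiap and Atrx, which are not of a member's family. In CT26 5 were called higher and 6 lower with a median log2 fold change of -0.01. In E0771 2 of 21 tested were called higher with a median of 0.02. In MC38 5 were called higher and 5 lower with a median of -0.07. Of all genes tested, 19.8%, 1.53% and 18.9% were higher and 18.6%, 0.0256% and 16.9% lower in CT26, E0771 and MC38. The list's share called higher was near that of all genes in CT26 and MC38 and above it in E0771. Tor1aip2, the neighbour and relative of Tor1aip1 that overlaps it on the opposite strand, rose by 0.87, 1.13 and 0.71 in CT26, E0771 and MC38. Lgals8, a galectin gene like Lgals9, rose by 0.88, 1.65 and 0.65. The torsin genes Tor1a, Tor1b and Tor2a, relatives of Tor3a, were not called in any line, with log2 fold changes from -0.17 to 0.14, and Adarb1, the relative of Adar, changed by -0.06, 0.08 and 0.15 without a call.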

How the data were processed

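Poly(A)-selected, stranded Illumina libraries were 14 in number, per the labels' protocols. The authors deposited estimated counts per Ensembl gene, 1 table per line; Salmon, DESeq2 and the GRCm38 build are named in the submitters' processing notes with neither version nor role, and the annotation and strand setting are not given in the sources used here. Estimated counts were rounded to whole numbers. Of 34866 identifiers, 34652 matched GENCODE M21 of GRCm38 without the version and 214 did not. The 32 genes, their grouping and the lists beside them were chosen with earlier results of these data known. Genes named with values in every library follow a fixed rule: the 4 largest called changes per line, called falls, genes not called in CT26, the 3 largest called interactions per pair of lines, and the 3 highest and lowest levels per length. Adar and Gm6548 are given by library outside this rule, chosen after their values were seen. 1 gene of the signalling list is not reported here by name.

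Within each line, edgeR 4.0.16 in R 4.3.3 was run with TMM normalization, filterByExpr at a minimum count of 10 and robust quasi-likelihood fits. P-values were adjusted by Benjamini and Hochberg's method across every gene in the fit, and genes under 0.05 were called. Interactions and control levels came from 1 fit of all 14 libraries, in which the spread is shared between lines. Standard errors (SE) were derived from the test: the size of the log2 fold change divided by the square root of the quasi-likelihood F statistic. Levels (CPM) use library sizes scaled by TMM. A count of 0 allows 3 counts, which is 0.074 to 0.0914 CPM for CT26 libraries, 0.224 to 0.242 CPM for those of E0771 and 0.158 to 0.243 CPM for those of MC38. The fits were also run on simulated counts drawn with 1 spread per fit. Such counts cannot test a spread that differs between lines, and no conclusion is drawn from them. Alternatives were DESeq2 1.42.0 size factors and test, no filter, a replicate block, other groupings of lines, limma 3.58.1 voom weights, plain library sizes and each library left out. In E0771 and MC38 a library left out leaves 1 in its group. Calls gained or lost that way rest on the spread of the remaining libraries.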

Additional observations from a re-analysis of the deposited data

Results flagged for a closer look

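Differences in the response between lines, by edgeR's interaction test, single out these results. Between CT26 and E0771 18 of the 32 genes differed, with the largest called differences (CT26 minus E0771, log2) in Ddx60 at -3.68, Xaf1 at -2.50 and Rtp4 at -2.04. Between CT26 and MC38 7 differed, led by Isg20 at 1.13, Daxx at 1.11 and Rnf213 at 0.93. Between E0771 and MC38 19 differed, led by Ddx60 at 3.95, Xaf1 at 2.81 and Rtp4 at 2.44. Of all genes tested, 1.06% had a larger and 2.81% a smaller value in CT26 than in E0771. These shares were 1.98% and 1.82% for CT26 against MC38, and 1.81% and 0.3% for E0771 against MC38. The E0771 controls of Ddx60, at 4.37 and 2.81 CPM, and of Xaf1, at 9.58 and 3.93 CPM, enter both contrasts with E0771. The Rtp4 values rest on E0771 controls of 14.3 and 3.85 CPM and lose their call under several alternatives, and Rnf213 loses it without MC38 control replicate 2 (adjusted p = 0.0638). No group had the 4 samples that a check for single outlying libraries needs.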

How the results depend on the processing

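The 30 calls in CT26 were the number found in every alternative, and over all alternatives the count was 20 to 30 in E0771 and 27 to 31 in MC38. Counts of genes with a different response between lines moved more. In a fit of the 2 lines only they were 10 for CT26 and E0771, 13 for CT26 and MC38 and 10 for E0771 and MC38. For CT26 and MC38 they were 13 with voom weights per line, where 7.85% of all genes tested had a larger and 9.84% a smaller value in CT26. Leaving out single libraries gave 14 to 20, 4 to 10 and 14 to 22 for these pairs, 20 to 24 in E0771, 31 in MC38 and 30 in CT26. For control levels the same gave 28 to 30 for CT26 and E0771, 19 to 25 for CT26 and MC38 and 29 to 31 for E0771 and MC38, and, with each of the 4 E0771 libraries left out, 25 to 27 genes were closer between lines with RIG-I agonist. That last alternative, and the comparison of CT26 with MC38 only (18 of 30 genes), were chosen after seeing the data.

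Replicate numbers as pairs: same-numbered libraries correlated in their deviations by 0.0924, 0.0842 and 0.262 in CT26 and by -0.0179 in MC38. In E0771 the correlation was 0.639 for same-numbered and -0.639 for different-numbered libraries, so a pairing there cannot be set aside. With 2 libraries per group these values are mirror images of each other. The main fits used no pairing in any line, and the E0771 calls depend on this choice. With the replicate block the calls were 30 in CT26, 26 in E0771 and 31 in MC38. Of all genes tested with the block, 20%, 10.6% and 20.9% were higher and 18.2%, 10.4% and 18.9% lower in these lines. The differing genes were 20, 11 and 23 for the pairs in the order above. Shares of all genes with a larger and a smaller value in the first line were 3.27% and 7.22%, 5.36% and 7.03%, and 4.28% and 1.73%.

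Over all genes, calls ranged over the alternatives from 3503 to 5907 in CT26 (5334 as reported), 161 to 2458 in E0771 (183) and 998 to 4926 in MC38 (4437), and for the differences from 202 to 1537 (568), 167 to 2592 (557) and 87 to 880 (309). The causes were not tested.

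Sign changes were seen only for values that were not called. With DESeq2 size factors the difference between CT26 and MC38 was 0.0026 for Ogfr and 0.01 for Nt5c3, and the control level of Plscr1 differed by -0.01. Leaving out single libraries gave -0.16 to 0.03 for Apobec3 in CT26. It gave -0.08 to 0.22 for Pnpt1 between CT26 and E0771 and -0.12 to 0.18 between E0771 and MC38. Between CT26 and MC38 the differences were -2.05 to 2.86 for Ms4a4d, -0.00027 to 0.14 for Pml, -0.07 to 0.03 for Nt5c3 and -0.01 to 0.11 for Gm6548. Control levels of CT26 against E0771 were -0.12 to 0.07 for Znfx1 and -0.14 to 0.03 for Rnf213. Those of CT26 against MC38 were -0.01 to 0.17 for Samd9l, -0.02 to 0.11 for Plscr1, -4.91 to 0 for Ms4a4d and -0.03 to 0.12 for Pml. The Ms4a4d values are fits to controls of 0 to 2 counts and are no bounds. Depth limits Ms4a4d and Epsti1, whose controls held few counts.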
